A study of Mus musculus with 36 samples.

Results

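Secondary granules and mature neutrophils are represented here by 9 genes, Camp, Ltf, Lcn2, Ngp, Fpr1, Fpr2, Ceacam10, Plbd1 and Cybb. They were chosen by gene name, with earlier results of these data known. Each name matched 1 row in each of 3 deposited expression tables. These 9 genes stand among 56026 gene models in the bone marrow table, 56575 in the B16 table and 57252 in the MC38 table. Gene expression was measured by RNA sequencing in 36 libraries from wild-type (WT) mice, which form 12 groups of 3 libraries. Bone marrow gave granulocyte-macrophage progenitors (GMP) and monocytes, named GMPs and Monos in the sample titles. Tumours gave tumour-associated macrophages (TAM), either from B16-F10, an established mouse melanoma line, or from MC38, an established mouse colon carcinoma line. The titles of the tumour libraries name the line and not the cell type. Each population was taken after phosphate-buffered saline (PBS), after OMV-SIRP, or after OMV-SIRP-G. The series title speaks of engineered outer membrane vesicle nanohybrids, and outer membrane vesicles are particles that Gram-negative bacteria shed, but the labels do not say what SIRP and G stand for. No label used here gives a dose, time, strain, age or method of cell isolation. The design text mentions pooling of 3 samples per group, and no label ties a library to an animal of its own. Each p-value therefore reflects the spread among these libraries, and that spread may be technical.

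Neutrophils carry several kinds of granule that are filled one after another as the cell matures. Primary granules are filled at the promyelocyte stage with myeloperoxidase and serine proteases, and secondary (specific) granules are filled later, at the myelocyte and metamyelocyte stages, under the control of C/EBP-family transcription factors, C/EBP-epsilon above all. Camp encodes the precursor of cathelicidin, an antimicrobial peptide. Ltf encodes lactoferrin, which binds iron, and Lcn2 encodes lipocalin 2, which binds bacterial siderophores. Ngp encodes neutrophilic granule protein, a relative of the cathelicidins and cystatins. Fpr1 and Fpr2 encode formyl peptide receptors, through which neutrophils and monocytes sense N-formylated bacterial peptides and move towards them. Ceacam10 encodes a short secreted member of the carcinoembryonic antigen family, Plbd1 encodes a phospholipase B-like protein of neutrophils and other myeloid cells, and Cybb encodes gp91phox, the catalytic subunit of the phagocyte NADPH oxidase. Cybb, Plbd1 and Fpr2 are also used by monocytes and macrophages, whereas Camp, Ltf, Ngp and Ceacam10 are mainly granulocytic.

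Per library, 13036567 to 19822660 reads had been assigned to a gene. Values are FPKM, fragments per kilobase of gene length scaled by depth, so levels can be compared between genes. The 3 tables were scaled separately, so a level set across tables is approximate, and all tests were made within a population. In bulk RNA, fewer cells of a type and less RNA per cell cannot be told apart. Several libraries stood apart. Monocyte PBS replicate 2 correlated with the other PBS monocyte libraries at r of 0.925 and 0.928, against 0.988 between those 2. In MC38 TAM, PBS replicate 3 and OMV-SIRP replicate 2 correlated with their group mates at 0.81 to 0.845. The libraries labelled MC38 TAM PBS went against their label, since 7 macrophage markers (Adgre1, Cd68, C1qa, C1qb, C1qc, Mrc1 and Fcgr1) summed to 46.1, 54.6 and 109.6 FPKM there and to between 1018 and 1730.0 FPKM in the 6 treated MC38 libraries. In B16 TAM the same sum was between 3364 and 7391 FPKM in all 9 libraries. The 6 progenitor markers (Cd34, Kit, Mpo, Elane, Prtn3 and Ctsg) summed to between 5012 and 6263 FPKM in the GMP libraries. Of these, Mpo, Elane, Prtn3 and Ctsg are also primary granule genes. The GMP libraries also held Ly6g, the surface marker of mature mouse neutrophils, at 15.4 to 54.7 FPKM. Their 7 neutrophil markers, named below, summed to between 19030 and 41340 FPKM.

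All 9 genes lie on the GRCm38 build as protein-coding genes. Camp (ENSMUSG00000038357, chr9:109847379-109849617), Ngp (chr9:110419747-110423012) and Ltf (chr9:111019271-111042767) share chromosome 9, with 570.1 kb between Camp and Ngp and 596.3 kb between Ngp and Ltf. The interval between Camp and Ngp holds 8 other protein-coding genes and that between Ngp and Ltf holds 20. Fpr1 (chr17:17876471-17883940) and Fpr2 (chr17:17887824-17893952) are neighbours 3.9 kb apart with no protein-coding gene between them. Lcn2 lies at chr2:32384633-32388252, Ceacam10 at chr7:24777206-24784657, Plbd1 at chr6:136612070-136661928 and Cybb at chrX:9435252-9487771.

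The 4 granule protein genes all rose in GMP with OMV-SIRP and were all lower after OMV-SIRP-G than after OMV-SIRP, so the 250 bases upstream of their start sites are shown, from RefSeq on GRCm38.p6, read 5′ to 3′ along each gene's strand. All 9 genes matched a RefSeq promoter window by symbol. Capitals mark matches to TTGCNNAA, the core of a C/EBP site, and to GAGGAAG, a core bound by the myeloid factor PU.1, on either strand. The windows are chr9:109849457-109849706 on the minus strand for Camp, chr9:111019042-111019291 on the plus strand for Ltf, chr2:32387740-32387989 on the minus strand for Lcn2 and chr9:110419558-110419807 on the plus strand for Ngp.
Camp: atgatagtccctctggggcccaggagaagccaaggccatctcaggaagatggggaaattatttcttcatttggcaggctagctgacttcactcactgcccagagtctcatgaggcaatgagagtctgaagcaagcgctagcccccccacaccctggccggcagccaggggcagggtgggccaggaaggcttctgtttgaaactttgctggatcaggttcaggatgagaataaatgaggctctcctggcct
Ltf: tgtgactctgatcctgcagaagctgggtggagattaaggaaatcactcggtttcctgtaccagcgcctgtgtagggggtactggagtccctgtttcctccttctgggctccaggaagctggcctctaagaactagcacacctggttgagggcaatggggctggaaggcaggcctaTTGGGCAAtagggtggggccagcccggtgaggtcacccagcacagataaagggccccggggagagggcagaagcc
Lcn2: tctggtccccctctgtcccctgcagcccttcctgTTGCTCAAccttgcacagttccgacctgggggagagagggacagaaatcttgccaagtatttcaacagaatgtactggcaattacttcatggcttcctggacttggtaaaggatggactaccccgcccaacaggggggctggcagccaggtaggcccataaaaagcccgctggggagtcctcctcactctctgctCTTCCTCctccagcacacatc
Ngp: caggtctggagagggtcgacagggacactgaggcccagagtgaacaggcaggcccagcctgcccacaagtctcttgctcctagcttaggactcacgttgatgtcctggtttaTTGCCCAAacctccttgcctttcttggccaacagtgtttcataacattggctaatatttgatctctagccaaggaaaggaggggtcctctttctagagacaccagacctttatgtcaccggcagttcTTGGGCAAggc
The C/EBP core was found 75 to 68 bases upstream of the Ltf start site, 216 to 209 bases upstream in Lcn2, and in Ngp both 138 to 131 and 11 to 4 bases upstream. Windows of 300 bases, from 250 upstream to 50 downstream of the start site, were searched for all genes. Among the 9 genes, 3 held the C/EBP core (Ltf, Lcn2 and Ngp), as did 10.8% of 32851 such windows. The PU.1 core was found in Lcn2 alone, 21 to 15 bases upstream, and in 13.6% of all windows. The letters TATAAA were found 227 to 222 bases upstream in Fpr1 and 130 to 125 bases upstream in Fpr2, and in 13.6% of all windows. The NF-kB motif was found in 0 of the 9 genes and in 4.51% of all windows. These searches do not overlap each other in the windows printed, and a match is a description of letters only.

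Before treatment, the order of levels differed between the populations. In the libraries labelled GMP under PBS, the 4 granule protein genes were among the most abundant transcripts of all. These libraries also held mature neutrophil markers, and which cells held the granule transcripts was not tested. Ngp stood at 6784 ± 1034 FPKM (SD, n = 3), Camp at 2256 ± 407, Ltf at 1078 ± 48.0 and Lcn2 at 711 ± 105, and the means of all 4 lay at or above percentile 99.67 of the tested genes. Cybb followed at 227 ± 7.40 FPKM, then Plbd1 at 39.3 ± 1.93, Fpr2 at 27.5 ± 2.40, and Fpr1 and Ceacam10 at 4.6 ± 0.305 and 4.61 ± 0.428. In this order Fpr1 and Ceacam10 did not differ beyond their spread. Every other pair of neighbours was separate in all 3 libraries.

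PBS-treated monocytes, in the same table as GMP, held the 4 granule protein genes at lower levels in every library and Plbd1 at higher ones, while the ranges of Cybb overlapped. Ngp was at 676 ± 242 FPKM, Cybb at 338 ± 100.5, Camp at 182 ± 119, Plbd1 at 113 ± 8.20, Lcn2 at 92.7 ± 38.5 and Ltf at 68.0 ± 19.6. Fpr2 was at 36.3 ± 7.50 FPKM, Fpr1 at 5.69 ± 1.64 and Ceacam10 at 0.637 ± 0.103, below the filter on low values. Between Ngp and Ltf each neighbour in this order overlapped the next across the 3 libraries, apart from Ngp and Cybb. In B16 TAM under PBS, Plbd1 at 94.6 ± 3.73 and Cybb at 17.3 ± 2.90 FPKM led, and the other 7 genes had means at or below 3.35 FPKM, Ngp having no read in any of the 9 B16 libraries. The libraries labelled MC38 TAM PBS led with Lcn2 at 65.3 ± 26.4 FPKM, and Plbd1 was at 4.36 ± 2.47.

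**Figure D1:**
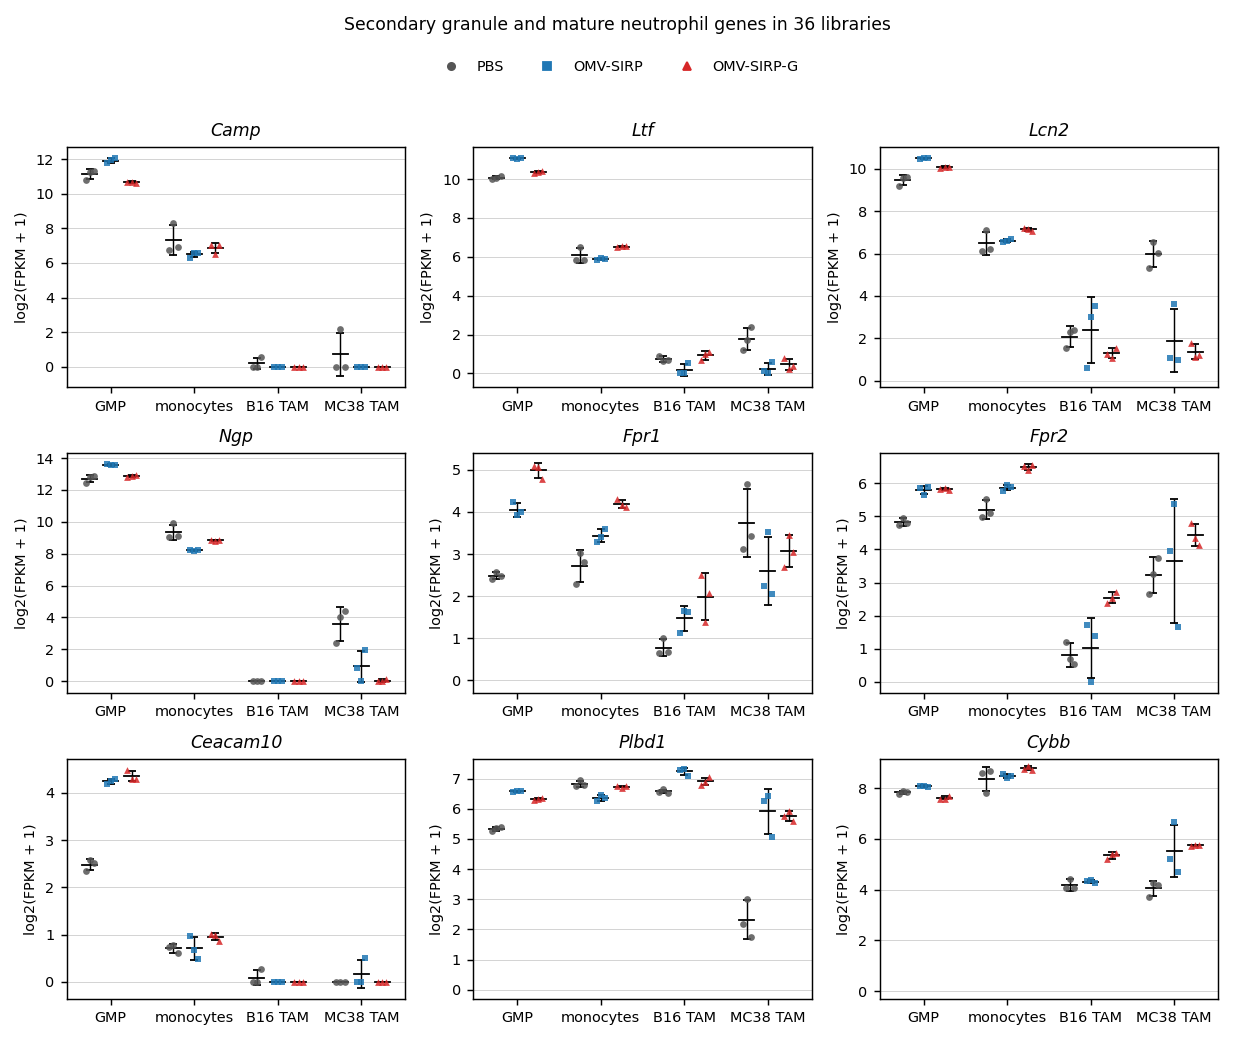
Level of each of the 9 genes in all 36 libraries, as log2(FPKM + 1), by population on the horizontal axis and treatment by colour and shape. Points are libraries, horizontal lines are means and bars are SD (n = 3). Camp, Ltf, Lcn2 and Ngp are highest in GMP, while Plbd1 and Cybb are present in all 4 populations.

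In GMP, OMV-SIRP raised all 9 genes above PBS. By limma, 9 of 9 were called higher at an adjusted p under 0.05 and 0 lower, where 10.6% of the 12287 genes tested were called higher and 7.52% lower. The median log2 change of the 9 was 0.99, against 0.015 over all genes tested. Because the 9 genes were chosen with earlier results known, these shares and medians support nothing by themselves. The same limit holds for the shares and medians in every comparison below. All 3 OMV-SIRP libraries lay above all 3 PBS libraries for each of the 9, and how many of all genes do the same was not counted. When libraries were instead scaled to total reads, the calls over all genes went from 1308 higher and 924 lower to 821 higher and 1825 lower, while 8 of the 9 genes were still called higher and Cybb was not.

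OMV-SIRP-G split the 9 genes. Against PBS, 6 were higher (Ltf, Lcn2, Fpr1, Fpr2, Ceacam10 and Plbd1) and 1, Cybb, was lower, where 6.76% of all genes were higher and 5.22% lower. The median log2 change of the 9 was 0.611, against 5.4e-05 over all genes. Between the agents, 1 gene (Fpr1) was higher after OMV-SIRP-G than after OMV-SIRP and 6 were lower (Camp, Ltf, Lcn2, Ngp, Plbd1 and Cybb), where 6.7% of all genes were higher and 8.12% lower. Total-read scaling changed that split over all genes from 823 higher and 998 lower to 1344 higher and 606 lower, and left the counts of the 9 genes at 1 and 6. OMV-SIRP and OMV-SIRP-G were compared with the same PBS libraries, so the 2 contrasts against PBS are not independent.

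Camp, the cathelicidin gene, had the largest fall between the agents. Its level was 1793, 2419.8 and 2555 FPKM under PBS, 3481, 3889 and 4201 under OMV-SIRP, and 1663, 1653 and 1568 under OMV-SIRP-G. The 3 groups did not overlap, and the OMV-SIRP-G libraries were the lowest. Camp was 1.71-fold higher after OMV-SIRP than after PBS (log2 change 0.79 ± 0.13, SE, limma adjusted p = 0.00388). From OMV-SIRP to OMV-SIRP-G it fell by 1.24 ± 0.13 on the log2 scale (limma adjusted p = 0.000475). Between OMV-SIRP-G and PBS the log2 change of -0.45 ± 0.13 did not pass (limma adjusted p = 0.0603), and it did pass by limma-voom on recovered reads, under total-read scaling and without PBS replicate 1, the lowest PBS library, with adjusted p from 0.00109 to 0.168 over all alternatives.

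Ltf, the lactoferrin gene, rose with both agents and more with OMV-SIRP. It was at 1036, 1069 and 1130.4 FPKM under PBS, 2147, 2129 and 2149 under OMV-SIRP, and 1264, 1329 and 1381 under OMV-SIRP-G. The OMV-SIRP-G libraries lay between the other groups without touching either. The rise with OMV-SIRP was 1.99-fold (log2 change 0.99 ± 0.069, limma adjusted p = 2.31e-05), and that with OMV-SIRP-G was 1.23-fold (log2 change 0.30 ± 0.069, limma adjusted p = 0.0229). The latter call was lost in 4 alternatives, including without PBS replicate 2, OMV-SIRP-G replicate 2 or OMV-SIRP-G replicate 3, with a highest adjusted p of 0.106. The fall between the agents was 0.69 ± 0.069 on the log2 scale and was called under every alternative.

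Lcn2, the siderophore-binding lipocalin gene, followed the same order as Ltf. Its PBS levels were 590.3, 763.0 and 780.0 FPKM, its OMV-SIRP levels 1422, 1445 and 1457, and its OMV-SIRP-G levels 1039.8, 1093 and 1104. No groups overlapped. It rose 2.03-fold with OMV-SIRP (log2 change 1.03 ± 0.10, limma adjusted p = 0.000171) and 1.52-fold with OMV-SIRP-G (log2 change 0.61 ± 0.10, limma adjusted p = 0.00481). The difference between the agents, -0.42 ± 0.10 (limma adjusted p = 0.0263), lost its call when any 1 of the 6 libraries was left out, with a highest adjusted p of 0.0916.

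Ngp, the neutrophilic granule protein gene, was the most abundant of the 9 in GMP. It was at 5604, 7215 and 7534 FPKM under PBS, 12559.5, 11913 and 11933 under OMV-SIRP, and 7121, 7569 and 7744 under OMV-SIRP-G. Only the OMV-SIRP libraries stood apart, and the PBS and OMV-SIRP-G libraries overlapped. The rise with OMV-SIRP was 1.79-fold (log2 change 0.85 ± 0.12, limma adjusted p = 0.00141). The change with OMV-SIRP-G against PBS was 0.15 ± 0.12 (limma adjusted p = 0.487), and the agents differed by -0.70 ± 0.12 (limma adjusted p = 0.0051).

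The formyl peptide receptor genes did not share that order. Fpr1 was at 4.30, 4.91 and 4.6 FPKM under PBS, 17.8, 14.2 and 14.9 under OMV-SIRP, and 33.4, 32.7 and 26.5 under OMV-SIRP-G. Each group lay wholly above the one before it. Its rise was 3.4-fold with OMV-SIRP (log2 change 1.56 ± 0.10, limma adjusted p = 1.63e-05) and 6.71-fold with OMV-SIRP-G (log2 change 2.5 ± 0.10, limma adjusted p = 6.9e-07), and it was the one gene of the 9 called higher after OMV-SIRP-G than after OMV-SIRP (log2 change 0.94 ± 0.10, limma adjusted p = 0.000489). Fpr2 was at 25.5, 30.1 and 26.8 FPKM under PBS, 56.8, 49.2 and 58.4 under OMV-SIRP, and 56.1, 57.1 and 54.3 under OMV-SIRP-G. Both treated groups lay above PBS and overlapped each other. Fpr2 rose 1.99-fold (log2 change 0.97 ± 0.077) and 2.03-fold (log2 change 1.00 ± 0.077), with limma adjusted p of 4.73e-05 and 4.41e-05. Its difference between the agents was 0.03 ± 0.077 (limma adjusted p = 0.829).

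Fpr2 is counted with some uncertainty. Of its transcripts' 50-base stretches, 31.5% occur exactly in transcripts of Fpr1, Fpr3 or Gm5966, and its gene model overlaps that of Fpr3 on the same strand. Fpr1 shares 0.0784% of its stretches and Ceacam10 shares 3.0% with Ceacam1 and Ceacam2. The other 6 genes share none. Fpr3 reached at most 0.446 FPKM in GMP, 0.379 in monocytes and 0.703 in MC38 TAM, and was listed at 0 in B16 TAM. Fpr-rs3, Fpr-rs4, Fpr-rs6 and Fpr-rs7 were listed at 0 in all 36 libraries. Plbd1 overlaps the uncertain model Gm44401 on the opposite strand, and since strand-specific counting is not stated, reads of the pair cannot be told apart.

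Ceacam10 and Plbd1 rose with both agents. Ceacam10 was at 4.13, 4.95 and 4.74 FPKM under PBS, 17.2, 18 and 18.6 under OMV-SIRP, and 21.4, 18.7 and 18.7 under OMV-SIRP-G. Treated and PBS libraries were wholly separate. The folds were 3.90 (log2 change 1.76 ± 0.073, limma adjusted p = 1.49e-06) and 4.26 (log2 change 1.88 ± 0.073, limma adjusted p = 5.31e-07), and the agents' difference of 0.12 ± 0.073 did not pass (limma adjusted p = 0.316). Plbd1 was at 37.1, 40.2 and 40.7 FPKM under PBS, 92.7, 94.3 and 95.3 under OMV-SIRP, and 77.1, 78.6 and 80.1 under OMV-SIRP-G. No 2 groups overlapped. It rose 2.39-fold (log2 change 1.24 ± 0.047, limma adjusted p = 1.29e-06) and 2-fold (log2 change 0.98 ± 0.047, limma adjusted p = 2.06e-06), and was lower after OMV-SIRP-G than after OMV-SIRP (log2 change -0.26 ± 0.047, limma adjusted p = 0.00689).

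Cybb, the oxidase gene, had the smallest of the called changes against PBS, in opposite directions for the 2 agents. Its levels were 219, 234 and 227 FPKM under PBS, 274, 271 and 262 under OMV-SIRP, and 189, 191 and 204 under OMV-SIRP-G. The groups did not overlap. The rise with OMV-SIRP was 0.25 ± 0.054 on the log2 scale (limma adjusted p = 0.0135), lost without OMV-SIRP replicate 1 or 2 and under total-read scaling, with a highest adjusted p of 0.061. The fall with OMV-SIRP-G was -0.22 ± 0.054 (limma adjusted p = 0.0309). That call was lost in 6 alternatives, 4 of which left out a single library (PBS replicate 2 or 3, or OMV-SIRP-G replicate 1 or 2), with a highest adjusted p of 0.122. The difference between the agents, -0.46 ± 0.054 (limma adjusted p = 0.000665), was called under every alternative.

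**Figure D2:**
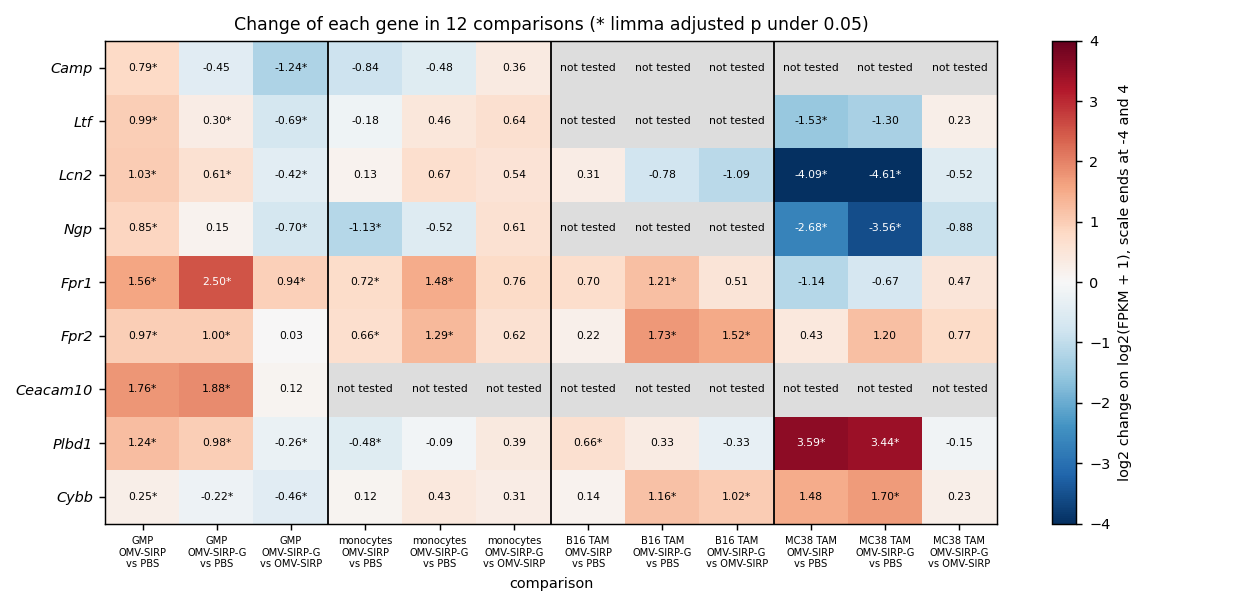
Change of each gene (rows) in each of 12 comparisons (columns), as the difference in log2(FPKM + 1) printed in each cell and shown by colour. Asterisks mark a limma adjusted p under 0.05, and grey cells are genes under the filter on low values. The first column is positive for all 9 genes. The MC38 columns against PBS pair falls of Lcn2 with rises of Plbd1, and those PBS libraries are low in macrophage markers. Ngp also falls there, but it passed the filter only through those PBS libraries.

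Other genes of the same pathways in GMP were described by lists chosen with earlier results of these data known. Of 13 other specific and gelatinase granule genes, 8 rose and 0 fell with OMV-SIRP (median log2 change 0.539). Mmp8, the neutrophil collagenase, had the lowest adjusted p of that list, followed by the gelatinase gene Mmp9, Cd177, which rose from 313 ± 17.2 to 538 ± 12.6 FPKM (limma adjusted p = 7.47e-05), and Chil3, which rose from 2238 ± 188 to 4464 ± 208 FPKM (limma adjusted p = 9.43e-05). With OMV-SIRP-G against PBS, 6 of the 13 rose and 2 fell (median 0.304). Between the agents 4 rose and 6 fell (median -0.208). There Mmp8 rose from 111 ± 5.77 to 184 ± 4.67 FPKM (limma adjusted p = 0.000104), while Cd177 fell from 538 ± 12.6 to 319 ± 19.6 FPKM (limma adjusted p = 0.000187).

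Of 5 genes that encode oxidase partners of Cybb, 2 rose with OMV-SIRP and 0 fell. Ncf1, which encodes the organizer subunit p47phox, rose from 259 ± 6.49 to 307 ± 7.97 FPKM (limma adjusted p = 0.0102). With OMV-SIRP-G against PBS, 0 rose and 1 fell, namely Ncf4. Between the agents 3 of the 5 were lower after OMV-SIRP-G, Ncf1 at 232 ± 5.01, Ncf4 at 140.1 ± 2.67 and Cyba at 332 ± 9.18 FPKM. The list's median log2 changes were 0.214, -0.155 and -0.328 in the 3 comparisons.

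Primary granule genes moved little. Of 8, 0 rose and 1 fell with OMV-SIRP (Ctsc, median of the list 0.00828), 0 rose and 2 fell with OMV-SIRP-G (Serpinb1a and Ctsc, median -0.044), and 1 was lower after OMV-SIRP-G than after OMV-SIRP (Serpinb1a). The 13 surface and cytosolic genes of mature neutrophils counted 9 higher and 1 lower with OMV-SIRP (median 0.646), and 7 higher and 1 lower with OMV-SIRP-G (median 0.605). Il1r2, a decoy receptor for interleukin 1, rose from 19.8 ± 1.49 to 41.1 ± 1.37 FPKM with OMV-SIRP (limma adjusted p = 9.72e-06). Between the agents that list counted 4 higher and 4 lower, with S100a9 falling from 24636 ± 1386 to 14987 ± 831 FPKM (limma adjusted p = 0.011).

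Among 8 granulocyte regulators, 1 rose and 1 fell with OMV-SIRP. Csf3r, the receptor of granulocyte colony-stimulating factor, rose from 112 ± 15.1 to 138 ± 2.78 FPKM (limma adjusted p = 0.0308), and the repressor gene Gfi1 fell from 59.9 ± 3.57 to 49.5 ± 1.32 FPKM (limma adjusted p = 0.00749). With OMV-SIRP-G against PBS 1 rose (Csf3r) and 2 fell (Cebpe and Gfi1). Cebpe, which encodes C/EBP-epsilon, was the single regulator called between the agents. It was at 289 ± 26.0 FPKM under PBS, 320.5 ± 17.5 under OMV-SIRP and 205 ± 5.40 under OMV-SIRP-G, and the last value was lower than that under OMV-SIRP (log2 change -0.64 ± 0.075, limma adjusted p = 0.000631).

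**Figure D3:**
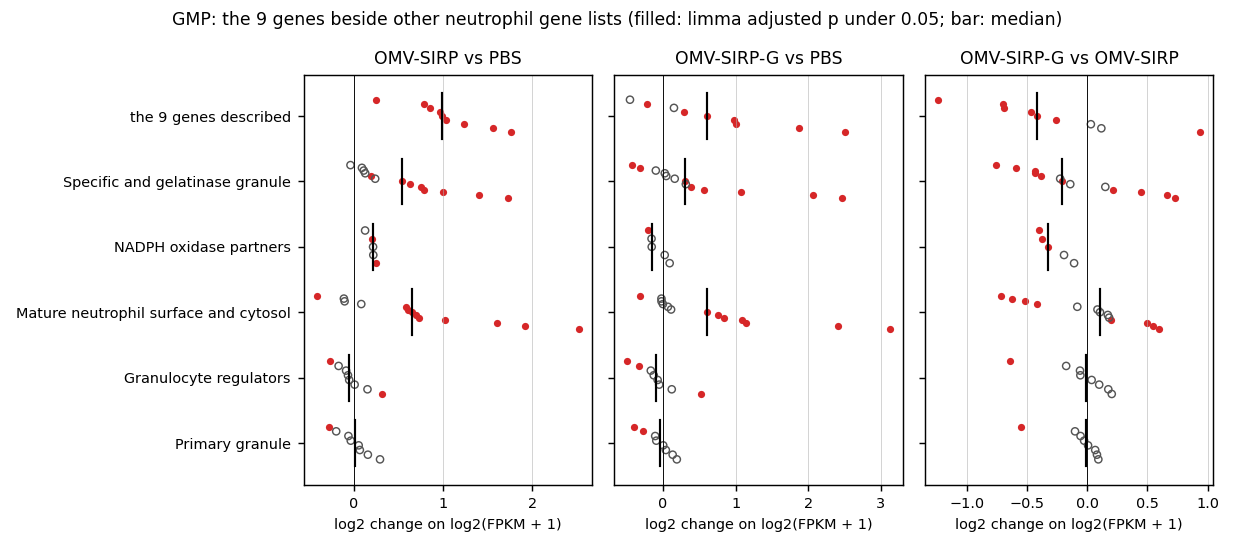
Log2 change of the 9 genes and of 5 other gene lists in GMP, in 3 comparisons. Each point is a gene, filled where the limma adjusted p is under 0.05, and vertical bars are list medians. The 9 genes have medians of 0.99, 0.611 and -0.418, and the primary granule list stays near 0.

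Markers of mature neutrophils that are not among the 9 genes moved with these results. The 7 markers Ly6g, Cxcr2, S100a8, S100a9, Retnlg, Mmp8 and Csf3r were all above 0 in GMP, and their sum was 19030 to 28210 FPKM under PBS, 39190 to 41340 under OMV-SIRP and 25270 to 27140 under OMV-SIRP-G. S100a8 and S100a9 make up most of that sum, and with OMV-SIRP-G against PBS neither was called. The other 5 markers were each called higher with OMV-SIRP-G. Ly6g went from 16.9 ± 1.59 to 37.0 ± 0.994 FPKM, Cxcr2 from 34.9 ± 0.808 to 63.6 ± 1.74 and Retnlg from 82.4 ± 16.5 to 714 ± 29.3. Cxcr2, Retnlg and Mmp8 were also higher after OMV-SIRP-G than after OMV-SIRP, while Ly6g, S100a8 and S100a9 were lower. The 6 progenitor markers summed to 5012 to 6263 FPKM under PBS, 5769 to 5970 under OMV-SIRP and 5729 to 6174 under OMV-SIRP-G, so these ranges overlapped. Other lists shifted, in the order PBS, OMV-SIRP and OMV-SIRP-G. The 7 macrophage markers summed to 51.0 to 59.5, 70.2 to 73.1 and 115.5 to 121 FPKM, and the 5 mast cell and basophil markers to 762 to 923, 415 to 437 and 573 to 609 FPKM. The 5 eosinophil markers summed to 3372 to 4434, 2399 to 2707 and 2819 to 2919 FPKM, and the 5 erythroid markers to 35.6 to 49.4, 4.02 to 5.68 and 4.26 to 5.58 FPKM. The part of these shifts in the changes of the 9 genes was not tested.

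The genes whose pattern over the 9 GMP libraries was most like each of these genes were found by Pearson r among 6459 protein-coding genes with a mean of at least 5 FPKM. These values describe libraries that share treatment groups and depth. Ngp was most like Nusap1 (r = 0.998), which encodes a mitotic spindle protein, and Pglyrp1 (r = 0.996), which encodes a peptidoglycan recognition protein of granules. Ltf was most like the glucose transporter gene Slc2a1 (r = 0.996), Lcn2 the tubulin gene Tubb4b (r = 0.994) and Camp Anp32b (r = 0.993). Fpr1 was most like Timp2 (r = 0.994), Ceacam10 Mgl2 (r = 0.993), with Retnlg next (r = 0.989), Plbd1 Ccdc126 (r = 0.992), with Ly6g among the nearest 3 (r = 0.99), and Cybb Agpat5 (r = 0.982).

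In monocytes, the receptor genes rose with both agents, and with all 9 libraries no granule protein gene did. With OMV-SIRP, Fpr1 and Fpr2 rose and Ngp and Plbd1 fell, which makes 2 of 8 tested genes higher and 2 lower, where 3.07% of 12028 genes were higher and 5.46% lower. The median of the 8 was -0.029, against -0.0284 over all genes. With OMV-SIRP-G, Fpr1 and Fpr2 rose and 0 of 8 fell, where 1.53% of genes were higher and 2.14% lower. Between the agents 0 of 8 passed limma, where 1.59% of genes were higher and 0.848% lower. At an unadjusted p under 0.05, 5 of the 8 differed between the agents, and limma-voom on recovered reads also called 0, with 6 at an unadjusted p under 0.05. Total-read scaling called 2, Ltf and Fpr2, and moved the calls over all genes from 191 higher and 102 lower to 142 and 188. A fit of those 2 groups alone, which leaves out the PBS libraries and their spread, called 7, all higher after OMV-SIRP-G. Over all 12028 genes that fit called 1294 higher and 773 lower. Ceacam10 was under the filter, at 0.393 to 1.01 FPKM.

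Fpr1 in monocytes was at 3.91, 7.14 and 6.01 FPKM under PBS, 8.81, 9.59 and 11.2 under OMV-SIRP, and 18.7, 16.9 and 16.3 under OMV-SIRP-G. Fpr2 was at 30.4, 44.7 and 33.6 FPKM under PBS, 53.7, 60.1 and 58.3 under OMV-SIRP, and 90.4, 83.0 and 93.2 under OMV-SIRP-G. For both genes the 3 groups did not overlap and OMV-SIRP-G was highest. With OMV-SIRP-G Fpr1 rose 3.04-fold (log2 change 1.48 ± 0.18, limma adjusted p = 0.00368) and Fpr2 2.45-fold (log2 change 1.29 ± 0.14, limma adjusted p = 0.00197), and both were called under every alternative. With OMV-SIRP the log2 changes were 0.72 ± 0.18 (limma adjusted p = 0.0489) and 0.66 ± 0.14 (limma adjusted p = 0.0273). Those calls were lost in 9 and 8 alternatives, with highest adjusted p of 0.185 and 0.116. Leaving out any single library of either group except PBS replicate 2 ended both.

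Ngp fell with OMV-SIRP. It was at 529, 954.6 and 544 FPKM under PBS, 295, 290.4 and 304 under OMV-SIRP, and 467, 441 and 455 under OMV-SIRP-G. All 6 treated libraries lay below all PBS libraries. The log2 change was -1.13 ± 0.22 with OMV-SIRP (limma adjusted p = 0.0185) and -0.52 ± 0.22 with OMV-SIRP-G (limma adjusted p = 0.314). Plbd1 was at 106, 122 and 109.9 FPKM under PBS, 75.0, 86.6 and 80.2 under OMV-SIRP, and 106, 103 and 107 under OMV-SIRP-G. The OMV-SIRP libraries were the lowest, and the other groups overlapped. Its change with OMV-SIRP was -0.48 ± 0.10 (limma adjusted p = 0.0266). Leaving out any 1 OMV-SIRP library ended the call for both genes, and leaving out PBS replicate 1 or 3 ended that for Plbd1, with highest adjusted p of 0.0985 for Ngp and 0.137 for Plbd1.

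PBS replicate 2 held more granule transcript than its 2 group mates. In it Camp was at 319 FPKM against 107 and 121, Ltf at 90.6 against 56.4 and 57.0, Lcn2 at 137 against 67.7 and 73.3, and Cybb at 222 against 386 and 404. The 7 neutrophil markers summed to 5998 FPKM there and to 2319 and 2553 in the other PBS libraries, and the 6 progenitor markers to 1762 against 788.6 and 777.8. Without this library the granule genes read differently. With OMV-SIRP-G, Ltf (log2 change 0.68 ± 0.052, limma adjusted p = 9.17e-05) and Lcn2 (0.99 ± 0.070, limma adjusted p = 5.7e-05) then rose and Ngp fell (-0.24 ± 0.058, limma adjusted p = 0.0308), so that 5 of 8 genes were called instead of 2. With OMV-SIRP, Lcn2 also rose (0.45 ± 0.070, limma adjusted p = 0.00233), Ngp, Plbd1, Fpr1 and Fpr2 were still called, and 5 of 8 were called instead of 4. Calls over all genes grew as well without PBS replicate 2. With OMV-SIRP-G they went from 184 higher and 258 lower of 12028 to 671 and 808 of 11854. With OMV-SIRP they went from 369 higher and 657 lower to 1499 and 2064.

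Camp, Ltf, Lcn2 and Cybb were not called in monocytes with all 9 libraries. Camp was at 78.6, 96.0 and 94.3 FPKM under OMV-SIRP and 128, 90.6 and 131 under OMV-SIRP-G. Ltf under OMV-SIRP-G, at 89.7, 91.9 and 92.5 FPKM, was above all OMV-SIRP libraries (56.9, 60.5 and 58.0) and overlapped PBS through PBS replicate 2. Lcn2 was at 91.1, 97.0 and 101 FPKM under OMV-SIRP and 146, 143 and 134 under OMV-SIRP-G, and Cybb at 374, 335 and 356 and at 434, 470.1 and 419. These genes' log2 changes against PBS ranged from -0.84 ± 0.38 for Camp with OMV-SIRP to 0.67 ± 0.24 for Lcn2 with OMV-SIRP-G. Without PBS replicate 2 the Camp change with OMV-SIRP was -0.35 ± 0.17 (limma adjusted p = 0.161).

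Primary granule genes fell in these monocytes, 5 of 8 with each agent and 0 rising, with list medians of -1.06 and -1.62. Mpo, the myeloperoxidase gene, was lowest under OMV-SIRP-G at 11.7 ± 0.595 FPKM (limma adjusted p = 9.69e-05 against PBS). Elane, the neutrophil elastase gene, fell from 448 ± 236 to 42.7 ± 0.872 FPKM (limma adjusted p = 0.000774). Of the 13 specific and gelatinase granule genes, 1 rose (Mmp9) and 3 fell with OMV-SIRP, and 1 rose (Mmp9) and 1 fell (Chil3) with OMV-SIRP-G. The 6 progenitor markers, of which 4 are primary granule genes, summed to 777.8 to 1762 FPKM under PBS, 417.1 to 471.1 under OMV-SIRP and 224.4 to 268.8 under OMV-SIRP-G. The 5 erythroid markers summed to 122 to 382, 7.82 to 8.31 and 14.8 to 18.6 FPKM in the same order, and the 5 eosinophil markers to 77.8 to 178, 22.1 to 24.5 and 36.4 to 48.4 FPKM. The part of these lists in the changes of the 8 genes was not tested. Scaling to total reads moved the median log2 change of all genes with OMV-SIRP from -0.0284 to 0.113, and the calls over all genes from 369 higher and 657 lower to 675 higher and 406 lower, and Plbd1 then lost its call while the other 3 genes were called in the same direction.

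Likeness in monocytes, over 9 libraries and 6381 candidates, gave other nearest genes than in GMP. Fpr1 was most like Il1f9 (r = 0.97), Fpr2 Acp5 (r = 0.986), Ltf Spp1 (r = 0.99), Lcn2 Ndufa4l2 (r = 0.979), Ngp Eid1 (r = 0.996), Camp Csrp2 (r = 0.993), Plbd1 Cited2 (r = 0.988) and Cybb Pik3cg (r = 0.996). The nearest 3 genes for Lcn2 included Ncf1 (r = 0.961).

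In B16 TAM Camp, Ltf and Ngp were close to absent, Lcn2 was low and variable, and OMV-SIRP-G went with higher receptor and oxidase transcripts. Of the 9 genes, 5 passed the filter (Lcn2, Fpr1, Fpr2, Plbd1 and Cybb). With OMV-SIRP against PBS, 1 of 5 was higher (Plbd1) and 0 lower, where 0.885% of 12542 genes were higher and 0.566% lower. With OMV-SIRP-G against PBS, 3 of 5 were higher (Fpr1, Fpr2 and Cybb) and 0 lower, where 7.83% of genes were higher and 7.28% lower. Between the agents 2 of 5 were higher after OMV-SIRP-G (Fpr2 and Cybb) and 0 lower, where 6.35% were higher and 5.62% lower. In both tumour tables a gene that passed the filter through 1 group alone was favoured to differ, though it need not be called. The shares of the tested genes therefore support nothing by themselves.

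Cybb showed the firmest change there. It was at 15.8, 20.7 and 15.5 FPKM under PBS, 19.1, 19.6 and 18.2 under OMV-SIRP, and 35.7, 41.4 and 42.2 under OMV-SIRP-G. The OMV-SIRP-G libraries stood apart from the other 6. The rise against PBS was 2.30-fold (log2 change 1.16 ± 0.14, limma adjusted p = 0.000381) and that against OMV-SIRP 2.10-fold (log2 change 1.02 ± 0.14, limma adjusted p = 0.0012), both called under every alternative. Of its 5 partners, 3 rose with OMV-SIRP-G against PBS, among them Ncf1 from 20.2 ± 1.11 to 40.4 ± 2.26 FPKM (limma adjusted p = 0.000515).

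Fpr1 was at 0.558, 1.01 and 0.582 FPKM under PBS, 1.19, 2.15 and 2.06 under OMV-SIRP, and 4.62, 1.61 and 3.19 under OMV-SIRP-G, from 10 to 93 reads per library. Fpr2 was at 1.31, 0.618 and 0.446 FPKM under PBS, 2.27, 0 and 1.60 under OMV-SIRP, and 4.26, 4.79 and 5.54 under OMV-SIRP-G, from 0 to 102 reads. OMV-SIRP-G libraries lay above PBS for both genes. The log2 changes were 1.21 ± 0.31 for Fpr1 (limma adjusted p = 0.0236) and 1.73 ± 0.40 for Fpr2 (limma adjusted p = 0.0158). Limma-voom on recovered reads called neither. The call for Fpr1 was also lost without PBS replicate 1 or 3 or OMV-SIRP-G replicate 1 or 3 (highest adjusted p 0.16), and that for Fpr2 without PBS replicate 2 or 3 or OMV-SIRP-G replicate 3 (highest adjusted p 0.124). Between the agents Fpr2 differed by 1.52 ± 0.40 (limma adjusted p = 0.035), a call lost in 8 alternatives, 4 of which left out a single library (OMV-SIRP replicate 2, or any 1 of OMV-SIRP-G), with a highest adjusted p of 0.119.

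Plbd1 was at 93.5, 98.7 and 91.5 FPKM under PBS, 156, 158 and 135 under OMV-SIRP, and 109.9, 118 and 130.3 under OMV-SIRP-G. The 3 groups did not overlap. OMV-SIRP raised it 1.58-fold (log2 change 0.66 ± 0.11, limma adjusted p = 0.0123), a call lost without any 1 PBS library and without OMV-SIRP replicate 1 or 2, with a highest adjusted p of 0.0772. With OMV-SIRP-G the change of 0.33 ± 0.11 did not pass (limma adjusted p = 0.0631), though it did by limma-voom on recovered reads (adjusted p = 0.0454) and in the fit of the 2 groups alone (limma adjusted p = 0.0403). Between the agents the change of -0.33 ± 0.11 did not pass either (limma adjusted p = 0.0763), and it did by limma-voom (adjusted p = 0.0438) and without OMV-SIRP replicate 3 (limma adjusted p = 0.027). Lcn2 was at 1.86, 3.97 and 4.24 FPKM under PBS, 0.520, 7.11 and 10.5 under OMV-SIRP, and 1.40, 1.08 and 1.93 under OMV-SIRP-G. It was called in no comparison with all libraries, and between the agents it was lower after OMV-SIRP-G once OMV-SIRP replicate 1, the lowest of its group, was left out (limma adjusted p = 0.00624). Ltf was at 0 to 1.14 FPKM in the 9 libraries. Camp had reads in 1 of the 9, PBS replicate 3 (6 reads), and Ceacam10 likewise (5 reads). Ngp had 0 reads in each, where 3 reads would be 0.158 to 0.181 FPKM.

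Other cell types' markers moved with treatment in B16 TAM. The 7 macrophage markers, all above 0, summed to 3626 to 4033 FPKM under PBS, 3364 to 4625 under OMV-SIRP and 7097 to 7391 under OMV-SIRP-G, and the 4 melanoma markers (Pmel, Dct, Tyr and Mlana), also above 0, to 1993 to 2276, 1640.0 to 1776 and 521.5 to 602.2 FPKM. The 7 neutrophil markers summed to 14.2 to 21.8 FPKM under PBS, 15.4 to 18.6 under OMV-SIRP and 25 to 40.9 under OMV-SIRP-G. Of these, Ly6g was at 0 in all 9 libraries, S100a9 in all 3 under OMV-SIRP and Cxcr2 in all 3 under OMV-SIRP-G, while Csf3r rose from 6.13 ± 0.999 to 18.2 ± 1.95 FPKM with OMV-SIRP-G (limma adjusted p = 0.000276). Markers of blood and lymphoid cells were lower in both treated groups. The 5 erythroid markers summed to 14270 to 15640 FPKM under PBS, 1967 to 2654 under OMV-SIRP and 2800 to 2813 under OMV-SIRP-G (Klf1 at 0). The 4 NK cell markers summed to 74.1 to 102, 13.2 to 20.8 and 13.8 to 24.0 FPKM in that order, with Ncr1 at 0 under OMV-SIRP-G, and the 5 T cell markers to 80.2 to 100.2, 33.6 to 43.7 and 34.4 to 36.3 FPKM. The part of these shifts in the changes of Cybb, Fpr1, Fpr2 and Plbd1 was not tested.

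In MC38 TAM, the treated libraries held less Lcn2 and Ngp and more Plbd1 than the libraries labelled PBS. Camp and Ceacam10 were under the filter, leaving 7 genes. Camp had reads in 1 of the 9 libraries, PBS replicate 2, at 3.47 FPKM from 53 reads, and Ceacam10 in 1 OMV-SIRP library, at 0.426 FPKM from 10 reads. With OMV-SIRP against PBS, 1 of 7 was higher (Plbd1) and 3 lower (Lcn2, Ngp and Ltf), where 7.4% of 14089 genes were higher and 3.49% lower. Ngp and Ltf were tested only because of their PBS levels. With OMV-SIRP-G against PBS, 2 were higher (Plbd1 and Cybb) and 2 lower (Lcn2 and Ngp), where 13.1% were higher and 6.86% lower. Between the agents limma called 0 of 7, where 0.149% of genes were higher and 0.234% lower. There 0 of the 7 had an unadjusted p under 0.05, by limma or by limma-voom on recovered reads, which also called 0. Total-read scaling moved the median log2 change of all genes with OMV-SIRP from 0.0278 to -0.267 and between the agents from 0.0545 to 0.208. Over all genes it moved the calls with OMV-SIRP from 1042 higher and 492 lower to 697 higher and 1635 lower, and with OMV-SIRP-G from 1843 higher and 966 lower to 1551 higher and 1431 lower, and between the agents from 21 higher and 33 lower to 28 and 20. With it OMV-SIRP still gave 1 of the 7 higher and 3 lower, and OMV-SIRP-G 2 higher and 3 lower.

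Lcn2 was at 39.2, 92.0 and 64.7 FPKM in the PBS libraries, 1.07, 11.2 and 0.972 under OMV-SIRP, and 2.42, 1.15 and 1.29 under OMV-SIRP-G. All treated libraries lay below all PBS libraries, with OMV-SIRP replicate 2 the highest of them. The log2 changes were -4.09 ± 0.65 (limma adjusted p = 0.00648) and -4.61 ± 0.65 (limma adjusted p = 0.00225), and both were called under every alternative. Without PBS replicate 3 and OMV-SIRP replicate 2 together, the former was -4.92 ± 0.41 (limma adjusted p = 0.00112).

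Ngp was at 4.22, 15.5 and 19.9 FPKM in the PBS libraries, from 99 to 381 reads. Under OMV-SIRP it was at 0.788, 0 and 2.82 FPKM, and under OMV-SIRP-G at 0, 0 and 0.0972, the last from 2 reads. The groups did not overlap with PBS. The log2 change with OMV-SIRP-G was -3.56 ± 0.61 (limma adjusted p = 0.00507), called under every alternative, and its size depends on the pseudocount of 1 because the treated libraries are near 0. With OMV-SIRP it was -2.68 ± 0.61 (limma adjusted p = 0.0259), a call lost in 9 alternatives. These include leaving out PBS replicate 2, PBS replicate 3, OMV-SIRP replicate 1 or OMV-SIRP replicate 2, with a highest adjusted p of 0.109. Ngp passed the filter on low values only through the PBS libraries, where it is high, so its calls with both agents support nothing by themselves. Ltf was at 1.33, 2.24 and 4.19 FPKM in the PBS libraries and at 0.0859, 0 and 0.499 FPKM under OMV-SIRP (log2 change -1.53 ± 0.41, limma adjusted p = 0.0439). It passed the filter on low values only through the PBS libraries, where it is high, so it was favoured to differ and its call supports nothing by itself. That call was lost in 7 alternatives, among them leaving out OMV-SIRP replicate 1 or 2, with a highest adjusted p of 0.146. Under OMV-SIRP-G Ltf was at 0.717, 0.158 and 0.310 FPKM, and its change did not pass (log2 change -1.30 ± 0.41, limma adjusted p = 0.0517).

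Plbd1 moved the other way. It was at 3.56, 7.13 and 2.39 FPKM in the PBS libraries, 75.5, 84.5 and 32.5 under OMV-SIRP, and 52.8, 60.3 and 47.4 under OMV-SIRP-G. The lowest treated library was above the highest PBS library. The rises were 14.7-fold (log2 change 3.59 ± 0.40, limma adjusted p = 0.00144) and 12.3-fold (log2 change 3.44 ± 0.40, limma adjusted p = 0.00101), and both were called under every alternative. Cybb was at 12, 18.1 and 17.0 FPKM in the PBS libraries, 36.1, 101 and 24.6 under OMV-SIRP, and 51.8, 53.4 and 52.7 under OMV-SIRP-G. Its 3.35-fold rise with OMV-SIRP-G passed (log2 change 1.70 ± 0.43, limma adjusted p = 0.0233). That call was lost in 5 alternatives, 4 of them without a single library (PBS replicate 1 or any 1 of OMV-SIRP-G), with a highest adjusted p of 0.0744. The rise with OMV-SIRP did not pass (1.48 ± 0.43, limma adjusted p = 0.0578), and it did by limma-voom, without OMV-SIRP replicate 2 or 3, and without PBS replicate 3 and OMV-SIRP replicate 2 together (0.96 ± 0.24, limma adjusted p = 0.0369).

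Fpr1 and Fpr2 were not called in MC38 TAM by the fit of all 9 libraries. Fpr1 was at 7.76, 24.3 and 9.84 FPKM in the PBS libraries, 3.69, 10.5 and 3.13 under OMV-SIRP, and 5.51, 10 and 7.22 under OMV-SIRP-G. Fpr2 was at 5.35, 8.66 and 12.4 FPKM, then 14.4, 40.2 and 2.16, then 26.7, 19.2 and 16.7. For Fpr1 all 3 groups overlapped, and for Fpr2 the OMV-SIRP-G libraries lay above PBS (log2 change 1.2 ± 0.76, limma adjusted p = 0.302), a change that passed in the fit of those 2 groups alone (limma adjusted p = 0.0314). Without the 2 libraries that stood apart, Fpr1 was lower with OMV-SIRP (-1.76 ± 0.48, limma adjusted p = 0.0495).

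The marker lists moved in MC38 TAM as well. The 7 neutrophil markers summed to 248.9, 544.4 and 342.7 FPKM in the PBS libraries, 77.9, 163.9 and 31.4 under OMV-SIRP, and 49.8, 34.8 and 50.4 under OMV-SIRP-G. In the PBS libraries 5 of the 7 had reads, Ly6g and Cxcr2 being at 0, and Ly6g was at 0 in all 9 MC38 libraries. S100a8 fell from 162 ± 60.3 to 3.89 ± 3.70 FPKM with OMV-SIRP (limma adjusted p = 0.00212), while Retnlg rose from 1.2 ± 2.08 to 55.6 ± 44.0 FPKM (limma adjusted p = 0.00532). Cybb's 5 partners were all higher with OMV-SIRP-G against PBS, among them Cyba from 97.4 ± 35.2 to 364 ± 11.5 FPKM (limma adjusted p = 0.00407), and 3 of the 5 were higher with OMV-SIRP. The macrophage markers C1qa, at 4.46 to 17.2 FPKM in the PBS libraries, and Cd68, at 15.2 to 41.4 FPKM, were at 283 to 486 and 143 to 245 FPKM in the treated libraries. The 4 NK cell markers, all above 0, summed to 17.1 to 32.4 FPKM in the PBS libraries, 67.9 to 592 under OMV-SIRP and 428.5 to 492.5 under OMV-SIRP-G, and the 4 fibroblast markers to 6.81 to 11.8, 27.1 to 72.1 and 16 to 16.7 FPKM. The mitochondrial transcripts mt-Co1, mt-Nd1 and mt-Cytb summed to 11240 to 19420 FPKM under PBS, 87390 to 140700 under OMV-SIRP and 31900 to 33930 under OMV-SIRP-G. The part of these shifts in the changes of Lcn2, Ngp, Ltf, Plbd1 and Cybb was not tested.

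**Figure D4:**
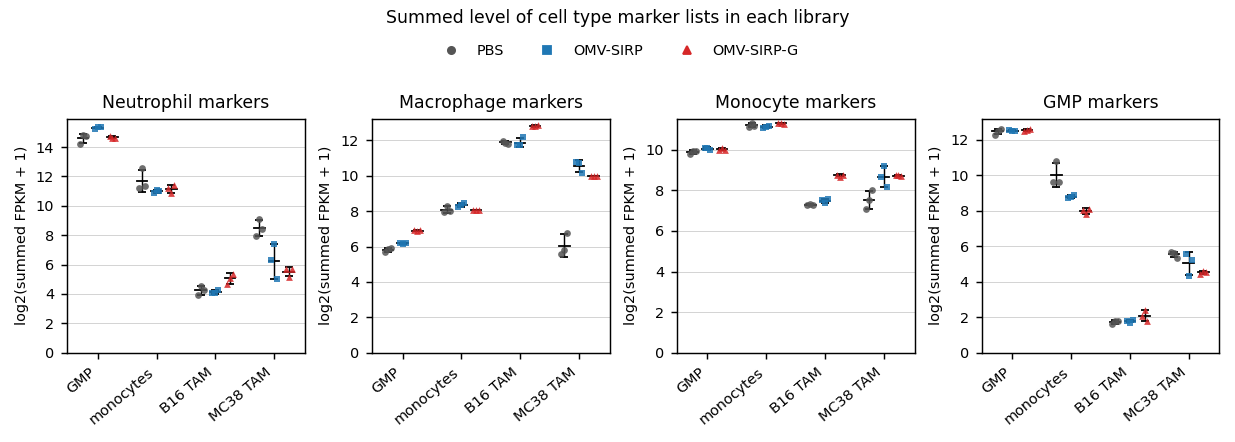
Summed level of 4 cell type marker lists in each of the 36 libraries, as log2(summed FPKM + 1), by population and treatment. Points are libraries, lines are means and bars are SD (n = 3). The MC38 PBS libraries have the lowest macrophage sums among the tumour libraries, 46.1 to 109.6 FPKM, and monocyte PBS replicate 2 has the highest neutrophil and progenitor sums among the monocyte libraries.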

How the data were processed

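RNA was extracted with TRIzol and made into libraries with a NEBNext mRNA kit, per the labels' protocols. HISAT2 2.0.5, StringTie, featureCounts 1.5.0-p3 and the GRCm38 build are named in the submitters' processing notes, with no roles or settings. The authors deposited FPKM values per gene, with gene lengths, in 3 tables, for bone marrow, B16 and MC38. FPKM multiplied by gene length gave whole reads, within 0.05 of a read, for 99.95% to 100% of values. These recovered reads gave depth and floors of 3 reads, which cover counting error only. They also showed that the deposited FPKM carry a median-of-ratios scaling of the libraries. For each population, limma 3.58.1 (statmod 1.5.0, R 4.3.3, trended and robust) was fitted on log2(FPKM + 1) of all 9 libraries, over genes with at least 1 FPKM in at least 3 libraries. P-values were adjusted by Benjamini-Hochberg over all genes tested, with a threshold of 0.05. Fold changes on this scale understate the change of low genes, and ratios quoted as folds are of mean FPKM. The code was tested on simulated data. All 9 genes are named whether called or not. Lists name at most 4 genes, those with the lowest adjusted p, and likeness names come from the 3 highest r. The members and lists were chosen with earlier results of these data known. The alternatives tried were a pseudocount of 0.1, no filter, scaling to total reads, limma-voom on recovered reads, a replicate block, fits of the 2 compared groups alone, and leaving out each library. Leaving out MC38 PBS replicate 3 and OMV-SIRP replicate 2 together was chosen after seeing the data. Some values for other genes are not reported here.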

Additional observations from a re-analysis of the deposited data

Results flagged for a closer look

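There were 22 combinations of a gene, a comparison and a pair of populations with complete separation in opposite directions. In these, the treated libraries all lay on one side of the reference libraries in one population and all on the other side in the second. How many of all genes do so was not counted, so the number supports nothing by itself. The ratios of mean FPKM are given for both, and the differences between populations were not tested. With OMV-SIRP against PBS, Camp had a ratio of 1.71 in GMP and 0.491 in monocytes. Without monocyte PBS replicate 2 the log2 change there went from -0.84 to -0.35 (limma adjusted p = 0.161). Ngp had 1.79 in GMP, 0.439 in monocytes and 0.0911 in MC38 TAM. Ltf had 1.99 in GMP, 0.0753 in MC38 TAM and 0.229 in B16 TAM, where it was under the filter on low values. Lcn2 had 2.03 in GMP and 0.0676 in MC38 TAM. Plbd1 had 0.715 in monocytes, against 2.39 in GMP, 1.58 in B16 TAM and 14.7 in MC38 TAM. Every MC38 ratio against PBS, here and below, uses the libraries labelled PBS whose macrophage markers went against that label.

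With OMV-SIRP-G against PBS, Ltf had a ratio of 1.23 in GMP and 0.153 in MC38 TAM, and Lcn2 had 1.52 and 0.0248. For Cybb it was 0.859 in GMP and higher elsewhere: 1.31 for monocytes, 2.30 for B16 TAM and 3.35 for MC38 TAM. Between the agents (OMV-SIRP-G over OMV-SIRP), Ltf had 0.618 in GMP, 1.56 in monocytes and 5.79 in B16 TAM, where it was under the filter. Lcn2 had 0.749 in GMP and 1.46 in monocytes, and Ngp had 0.616 and 1.53. Plbd1 had 1.31 in monocytes, against 0.835 in GMP and 0.796 in B16 TAM. Cybb had 0.724 in GMP, against 1.24 in monocytes and 2.10 in B16 TAM.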

How the results depend on the processing

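Of 87 gene and comparison pairs tested, 43 were called. Over all genes, the share called higher ranged from 0.149% to 13.1% across the comparisons, and the share called lower from 0.234% to 8.12%. The 43 include the MC38 TAM calls of Ngp and Ltf, which passed the filter only through the PBS libraries and support nothing by themselves. All 43 kept their direction under every alternative, 28 were called under every alternative and 15 lost their call under at least 1. Among the uncalled pairs, 19 gained a call under at least 1. Depth limits the low genes of the tumour tables, where single reads and the pseudocount weigh most.

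Leaving out 1 library at a time, the number of genes called ranged from 8 to 9, 5 to 8 and 6 to 6 in GMP (OMV-SIRP against PBS, OMV-SIRP-G against PBS, then between the agents), and, in the same order of comparisons, for monocytes 0 to 5, 2 to 5 and 0 to 0, for B16 TAM 0 to 1, 1 to 3 and 1 to 3, and for MC38 TAM 2 to 5, 3 to 4 and 0 to 0. Where that leaves 2 libraries in a group, the fit pools the spread of the other groups. Calls over all genes moved as well in these fits. In GMP with OMV-SIRP the calls higher ran from 841 to 1342. For monocytes with OMV-SIRP the calls ran from 114 higher and 252 lower to 1499 higher and 2064 lower. In monocytes with OMV-SIRP, 1 gene was called without the filter and 0 in the fit of the 2 groups alone, against 4. Over all genes the main fit called 369 higher and 657 lower there. Without the filter the calls were 249 and 514, and in the fit of the 2 groups 76 and 164. Between the agents in monocytes, 2 were called with total-read scaling and 7 in the fit of 2 groups, against 0. That fit of 2 groups also moved the calls over all genes from 191 higher and 102 lower to 1294 and 773. Between the agents in B16 TAM, 1 was called with the pseudocount of 0.1, 1 without the filter and 1 in the fit of 2 groups, against 2. In MC38 TAM with OMV-SIRP, 2 were called under each of those 3 settings, against 4. The cause was not tested.

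The main fit did not pair libraries by replicate number. Deviations of same-numbered libraries from their group means had correlations of -0.02 to 0.223 (GMP), -0.37 to 0.25 (monocytes), 0.000101 to 0.0779 (B16) and -0.0343 to 0.0534 (MC38). For differently numbered libraries they were -0.215 to 0.0466, -0.334 to 0.371, -0.0657 to 0.0444 and -0.064 to 0.0499. The ranges overlapped in each population, and in GMP the same-numbered range reached higher. With the replicate block, 0 genes were called in monocytes with OMV-SIRP, against 4, and no other count moved by over 1.5 times. The calls over all genes in that comparison went from 369 higher and 657 lower to 163 and 357 with the block. The block also called Fpr1 lower in MC38 TAM with OMV-SIRP (log2 change -1.14, limma adjusted p = 0.0445).

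Changes of sign occurred in uncalled log2 changes. Over the fits that left out 1 library, Fpr2 between the agents in GMP ran from -0.044 to 0.077. In monocytes with OMV-SIRP, Ltf ran from -0.29 to 0.044, Lcn2 from -0.057 to 0.45 and Cybb from -0.16 to 0.28, and with OMV-SIRP-G Camp ran from -0.77 to 0.018. In B16 TAM with OMV-SIRP, Lcn2 ran from -0.26 to 1.2 and Fpr2 from -0.12 to 0.73, and Fpr2 was -0.15 with the pseudocount of 0.1 and -0.78 by limma-voom. In MC38 TAM with OMV-SIRP, Fpr2 ran from -0.43 to 1.43 and was -0.17 without PBS replicate 3 and OMV-SIRP replicate 2. Between the agents there, Lcn2 ran from -0.97 to 0.34, Fpr2 from -0.23 to 1.62, Plbd1 from -0.58 to 0.099 and Cybb from -0.20 to 0.80. Without those 2 libraries Lcn2 was 0.34 and Plbd1 0.099, and Plbd1 was 0.037 with total-read scaling.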
